A study of Mus musculus with 16 samples.

Results

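The genes described here are the 10 listed genes of the interleukin-6 cytokine family and its signalling path: *Il6*, *Il11*, *Lif*, *Lifr*, *Osmr*, *Il6st*, *Stat3*, *Socs3*, *Cebpb* and *Cebpd*. They were taken by symbol from the 48397 gene symbols of the count tables, and all 10 were found in all 16 libraries. Of these, 9 passed the filter on low counts and were among the 17038 genes tested, while *Il6* did not pass. *Il11* passed through 5 libraries at or above the cutoff of 0.45 CPM (counts scaled to a common library size), none of which was a control library, so its differences from the control are given as values only, and the counts below are over the other 8 genes.

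The study asked how lipoproteins that carry the human apoE isoforms change the transcriptome of cultured hippocampal neurons. Bulk RNA was sequenced from 4 groups of 4 libraries, numbered 1 to 4 within each group. All cultures came from wild-type CD1 pups of P0 to P2, received cytosine arabinoside at the third day in vitro (DIV) against dividing cells, and were given astrocyte conditioned medium at 10 and 13 DIV before RNA was taken at 17 DIV. The apoE2, apoE3 and apoE4 groups received 10-fold concentrated medium of immortalized mouse astrocytes homozygous for the human *APOE* ε2, ε3 or ε4 allele, and the control group received the same preparation from immortalized *Apoe*-/- astrocytes. The media thus came from different cell lines, and anything else that these lines secrete differently cannot be told apart from the apoE isoform. All lines were fed 25-hydroxycholesterol during conditioning. The study describes the cultures as containing some astrocytes, which it counted by GFAP staining of cultures; those counts were not analysed here.

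Cytokines of the interleukin-6 family signal through receptor complexes that share the chain gp130, which *Il6st* encodes. Ligand binding activates JAK kinases and the transcription factor STAT3, and STAT3 in turn induces *Socs3*, the inhibitor that closes the loop, and *Cebpd*. In the brain the path is known above all for its part in astrocyte formation and in reactive astrocytes, and neurons respond to several of the ligands as well.

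On genes, the libraries held 14087723 to 34248172 counts, and 38.4 to 73.7% of the counted reads of a library fell on no single gene. This share was lowest in apoE2 library 4 (38.4%) and apoE4 library 2 (38.6%), and next lowest in control library 3 (51.4%). The 8 neuron markers examined together took 2876 to 7272 CPM per library, the 8 astrocyte markers 1307 to 6574 CPM, the 8 microglia markers 6.94 to 41.8 CPM and the 8 endothelial markers 2.42 to 10.3 CPM. No marker had 0 reads in all libraries. Libraries with the same replicate number resembled each other across groups, so each comparison was fitted both without a block and with a block for the replicate number.

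In every comparison with the control, the 8 genes had log2 fold changes above 0. The median of these was 0.62 for apoE2, 1.20 for apoE3 and 0.76 for apoE4, beside medians of 0.010, 0.015 and 0.0020 over all tested genes. Without the block, edgeR's quasi-likelihood test with Benjamini-Hochberg adjustment called none of the 8 in any comparison, where it called 0% of all tested genes for apoE2, 0.00587% for apoE3 and 0.194% for apoE4 against control. At an unadjusted p under 0.05 it would have taken 0, 4 and 1 of them, beside 2.79%, 6.43% and 3.3% of all tested genes, and DESeq2 called 1, *Stat3* with apoE3, where it called 0.352% of all tested genes. The 3 comparisons share the 4 control libraries.

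Once the replicate number was entered as a block, 4 of the 8 genes rose with apoE2, where 1.17% of all tested genes rose. With apoE3, 7 of the 8 rose, beside 7.95% of all tested genes. With apoE4, 6 of the 8 rose, beside 3.18%. *Osmr*, *Stat3*, *Socs3* and *Cebpd* rose with all 3 isoforms, *Lif* and *Il6st* with apoE3 and apoE4, and *Cebpb* with apoE3. *Lifr* passed the test in none of them. With the level of 8 astrocyte markers as a covariate beside the block, described below, 4, 2 and 0 of the 8 genes were called higher. The shares of all tested genes were then 2.08%, 0.452% and 0.217%. In the test of any difference among the 4 groups, 0 of the 8 passed without the block (0.229% of all tested genes did) and 7 passed with it (10.7%).

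**Figure D1:**
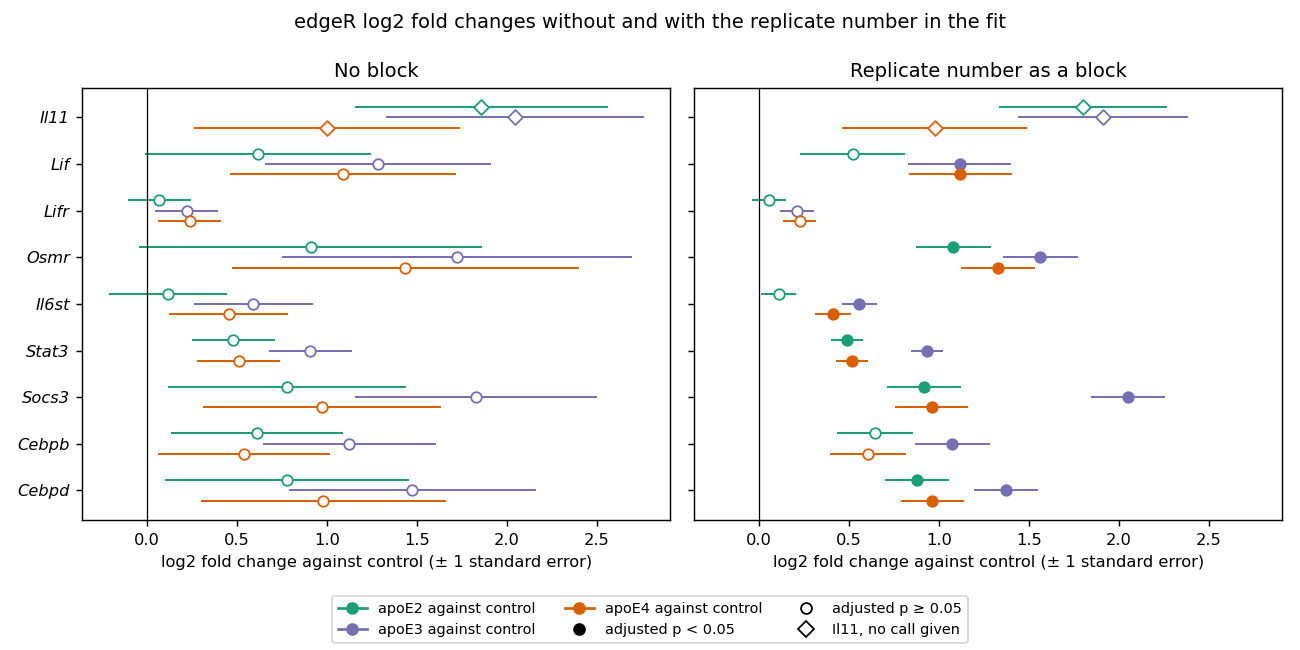
log2 fold changes of the 9 tested genes against control, with bars of 1 standard error, without a block on the left and with replicate numbers blocked on the right. Filled points have an adjusted p under 0.05: none on the left, and 4 with apoE2, 7 with apoE3 and 6 with apoE4 on the right. *Il11*, an open diamond, is drawn as a value with no call.

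The study listed genes by a 2-fold difference and an unadjusted p below 0.05 from a test of its own. The same limits were set here on the p-values of edgeR. By them, 0 of the 8 genes were higher with apoE2 (0.423% of all tested genes were). With apoE3 there were 3, *Socs3*, *Cebpb* and *Cebpd* (1.25%), and with apoE4 there were 0 (1.04%). With the block the counts were 1, 5 and 2, beside 1.02%, 3.51% and 2.29% of all tested genes.

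The ligands were scarce. *Il6*, the founding cytokine of the family, had 6 reads over the 4 control libraries, 8 with apoE2, 4 with apoE3 and 11 with apoE4, of which 10 were in apoE4 library 4. No difference was detectable at this depth. The gene lies at chr5:30013114-30019981 (+) in mm10.

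*Il11*, a cytokine that signals through its own alpha chain and gp130, lies at chr7:4772373-4782859 (-). It had 4, 1, 4 and 4 reads in control libraries 1 to 4. The apoE2 libraries had 8, 10, 6 and 35, the apoE3 libraries 15, 4, 7 and 14, and the apoE4 libraries 3, 6, 3 and 12. In CPM, the 4 apoE2 libraries (0.23 to 0.889) lay above the 4 control libraries (0.0402 to 0.209), while the apoE3 and apoE4 ranges overlapped the control range. The log2 fold changes without the block were 1.86 ± 0.70 (SE) for apoE2, 2.04 ± 0.72 for apoE3 and 1.00 ± 0.74 for apoE4, the last going to 0.34 without apoE4 library 4. No test of these differences is given, since *Il11* entered the fit through treated libraries alone.

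*Lif* encodes leukemia inhibitory factor, which drives precursor cells toward the astrocyte fate, and lies at chr11:4257557-4272514 (+). Its level in control libraries 1 to 4 was 1.77, 0.563, 1.01 and 1.41 CPM. With apoE3 it was 5.71, 0.696, 1.71 and 3.61 CPM, and with apoE4 it was 3.11, 1.196, 2.05 and 3.81 CPM. The ranges overlapped, and library 2 was the lowest of its group in all 4 groups. Within replicate numbers *Lif* was higher than control in 4 of 4 pairs with apoE3 and in 4 of 4 with apoE4, and in 3 of 4 with apoE2, where it measured 3.87, 0.916, 0.995 and 1.63 CPM. In the blocked fit, edgeR's log2 fold change was 1.12 ± 0.29 with apoE3 (adjusted p = 0.0211), 1.12 ± 0.29 with apoE4 (adjusted p = 0.0439) and 0.52 ± 0.29 with apoE2 (adjusted p = 0.484).

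Of the receptor chains, *Osmr* moved most. It encodes the chain that pairs with gp130 to bind oncostatin M, and lies at chr15:6813577-6874969 (-). Control libraries 1 to 4 measured 19.6, 3.38, 12.9 and 44.9 CPM, a 13.3-fold spread within the group. The apoE2 libraries measured 61.2, 8.66, 25.1 and 56.7 CPM. The apoE3 libraries measured 82.9, 8.76, 25.5 and 149.5 CPM. Library 2 was the lowest in each group, the groups overlapped, and each treated library exceeded the control library of its own number. With apoE4 the values were 58.6, 7.69, 26.8 and 125 CPM, again above control in 4 of 4 pairs.

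Without the block, the standard error of the *Osmr* log2 fold change was 0.95 to 0.97, and the values were 0.91, 1.72 and 1.44 with apoE2, apoE3 and apoE4. Leaving out 1 library moved these to 0.55 to 1.67, 0.94 to 2.48 and 0.61 to 2.19, the highest without control library 4 each time and the lowest without control library 2, apoE3 library 4 and apoE4 library 4. The blocked fit by edgeR gave 1.08 ± 0.21 (adjusted p = 0.017), 1.56 ± 0.21 (adjusted p = 5.4e-04) and 1.33 ± 0.21 (adjusted p = 0.00175). Replicate numbers held 81.8% of the variation of *Osmr* over the 16 libraries on the log2 CPM scale and groups 15.2%, beside medians of 56.1% and 14.4% over all tested genes.

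**Figure D2:**
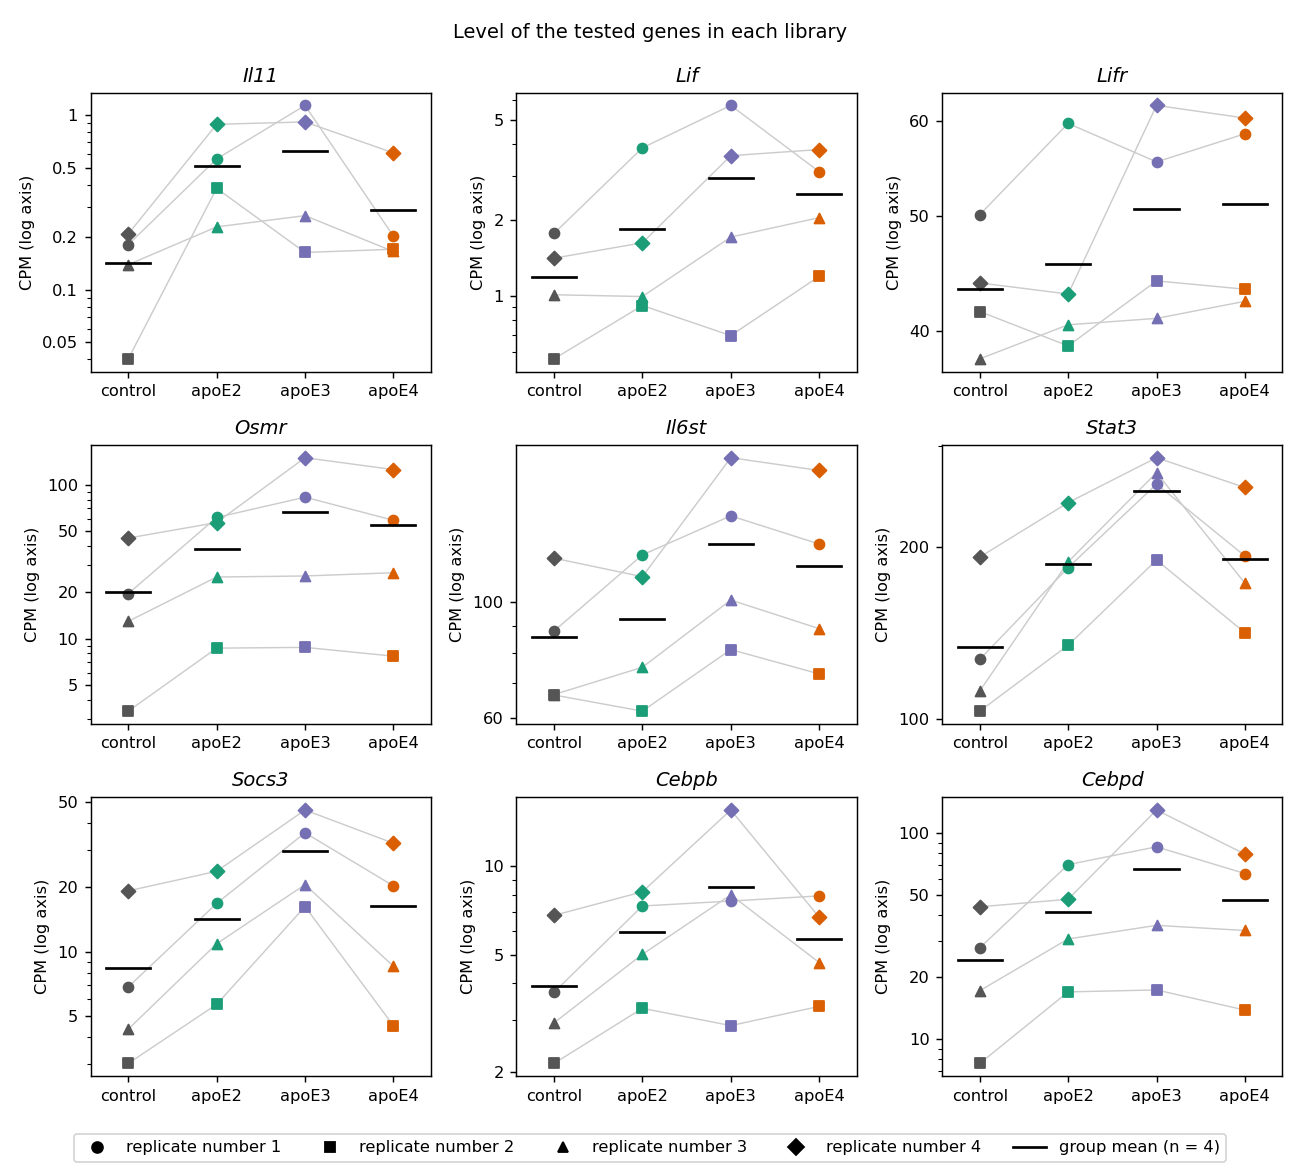
CPM of the 9 tested genes in each library on a log axis, by group, with a marker for each replicate number, grey lines joining libraries of the same number and bars at the group means. Libraries of the same number keep much of their order across groups, and *Il6st*, *Stat3*, *Socs3* and *Cebpd* are highest with apoE3 in all 4 numbers.

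*Il6st*, the gene of the shared chain gp130, lies at chr13:112464070-112510086 (+). It measured 88.1, 66.5, 66.6 and 121 CPM in control libraries 1 to 4, and 123, 62.0, 75.1 and 112 CPM with apoE2. With apoE3 it measured 146, 81.2, 101 and 188 CPM, and with apoE4 129, 72.9, 89.0 and 178 CPM. The groups overlapped, and the apoE3 and apoE4 libraries exceeded the control of their number in 4 of 4 pairs, the apoE2 libraries in 2 of 4. Blocked, its log2 fold change by edgeR was 0.56 ± 0.10 with apoE3 (adjusted p = 0.00287), 0.41 ± 0.10 with apoE4 (adjusted p = 0.0316) and 0.11 ± 0.10 with apoE2 (adjusted p = 0.722).

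*Lifr*, which encodes the chain that joins gp130 in the receptor of leukemia inhibitory factor, varied least of the 10 genes. It lies at chr15:7090614-7197489 (+) and kept within 37.9 and 61.9 CPM in all 16 libraries. Its group means were 43.4 ± 5.1 CPM (SD, n = 4) in control, 45.5 ± 9.6 with apoE2, 50.6 ± 9.8 with apoE3 and 51.2 ± 9.6 with apoE4. The log2 fold changes with the block were 0.06, 0.21 and 0.23, each with a standard error of 0.093, and edgeR's adjusted p was 0.874, 0.156 and 0.233.

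*Stat3*, the transcription factor downstream of gp130, lies at chr11:100885098-100939540 (-). Control libraries 1 to 4 measured 127, 103, 112 and 192 CPM. The apoE2 libraries measured 184, 135, 188 and 239 CPM. The apoE3 libraries measured 257, 189.7, 269.7 and 286 CPM. With apoE3, 3 of the 4 libraries lay above the highest control library, and library 2 lay just under it. The apoE4 libraries, at 193, 142, 173 and 254 CPM, were close to those with apoE2.

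*Stat3* was the gene among the 9 with the smallest share of variation between replicate numbers, 39.8%, and the largest between groups, 55.6%. With apoE3 its log2 fold change was 0.91 ± 0.23 without the block (edgeR, adjusted p = 0.407) and 0.94 ± 0.09 with it (adjusted p = 5.0e-05). With the block it was 0.49 ± 0.09 with apoE2 (edgeR, adjusted p = 0.0126) and 0.52 ± 0.09 with apoE4 (adjusted p = 0.00391). A share of 0.756% of its exon bases overlaps exons of *Stat5a* on the other strand, and whether the counting used strand is not stated.

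*Socs3*, the feedback inhibitor that STAT3 induces, lies at chr11:117966079-117970047 (-). It measured 6.86, 3.02, 4.36 and 19.3 CPM in control libraries 1 to 4. With apoE2 it measured 16.8, 5.69, 10.9 and 23.8 CPM. With apoE3 it measured 35.9, 16.3, 20.6 and 45.9 CPM, so that 3 of 4 libraries exceeded the highest control library. With apoE4 the libraries gave 20.3, 4.53, 8.57 and 32.1 CPM, and every treated library of all 3 groups exceeded the control of its number.

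The log2 fold change of *Socs3* with apoE3 was 1.83 ± 0.67 without the block (edgeR, adjusted p = 0.745) and 2.05 ± 0.20 with it (adjusted p = 6.6e-05), a 4.14-fold rise. With the block it was 0.92 ± 0.20 with apoE2 (edgeR, adjusted p = 0.0351) and 0.96 ± 0.20 with apoE4 (adjusted p = 0.016). Replicate numbers held 54.8% of its variation and groups 40.7%.

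The promoters of *Socs3* and *Stat3* are printed because these genes moved together and because STAT3 is known to act on *Socs3*. They are RefSeq windows on GRCm38.p6 from 250 bases before to 50 bases after the start, *Socs3* at chr11:117969317-117969616 (-) and *Stat3* at chr11:100939491-100939790 (-). Capitals mark the match to the STAT motif TTCNNNGAA, which reads the same on both strands.
Socs3: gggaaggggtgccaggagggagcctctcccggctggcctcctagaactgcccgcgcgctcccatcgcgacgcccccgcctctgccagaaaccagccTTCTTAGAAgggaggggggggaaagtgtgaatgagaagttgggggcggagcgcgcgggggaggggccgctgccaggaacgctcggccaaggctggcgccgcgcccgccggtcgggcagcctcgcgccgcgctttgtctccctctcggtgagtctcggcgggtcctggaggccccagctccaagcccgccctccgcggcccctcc
Stat3: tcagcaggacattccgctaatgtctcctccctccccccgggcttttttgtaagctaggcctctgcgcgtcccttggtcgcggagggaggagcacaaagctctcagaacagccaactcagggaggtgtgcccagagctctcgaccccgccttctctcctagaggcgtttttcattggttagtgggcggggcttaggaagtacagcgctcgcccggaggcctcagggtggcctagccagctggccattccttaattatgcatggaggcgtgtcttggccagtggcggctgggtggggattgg
The *Socs3* window held 1 match, TTCTTAGAA, starting 154 bases before the start, and the *Stat3* window held none. Of 32851 promoters of this length, 8.30% held a match. The C/EBP motif TTGCNNAA (TTNNGCAA on the other strand) was in 10.8% of them, and among the 11 promoters found for 9 of the 10 genes it was in that of *Il6* alone, as TTGTGCAA on the minus strand. *Cebpd* was not in the table. A match is a description of the letters in the window.

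The C/EBP genes, *Cebpb* and *Cebpd*, encode transcription factors that drive acute-phase and inflammatory genes downstream of this family. *Cebpd* lies at chr16:15887286-15891031 (+). Control libraries 1 to 4 measured 27.8, 7.64, 17.2 and 43.9 CPM. The apoE3 libraries measured 85.9, 17.4, 35.7 and 129.6 CPM. Library 2 was again the lowest of each group, and the groups overlapped. The apoE2 libraries measured 70.4, 17.0, 30.7 and 47.8 CPM, and the apoE4 libraries 63.7, 13.9, 33.7 and 79.2 CPM. All 12 treated libraries exceeded the control of their number. With the block, edgeR's log2 fold change was 0.88 ± 0.18 with apoE2 (adjusted p = 0.0222), 1.37 ± 0.18 with apoE3 (adjusted p = 4.5e-04) and 0.96 ± 0.18 with apoE4 (adjusted p = 0.00647). Replicate numbers held 74.6% of its variation.

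*Cebpb*, at chr2:167688915-167690418 (+), was lower, with 3.72, 2.13, 2.93 and 6.80 CPM in control libraries 1 to 4. With apoE3 it measured 7.61, 2.87, 7.99 and 15.5 CPM, above control in 4 of 4 pairs with overlapping ranges. With the block, edgeR's log2 fold change was 1.07 ± 0.21 with apoE3 (adjusted p = 0.00502), 0.65 ± 0.21 with apoE2 (adjusted p = 0.15) and 0.61 ± 0.21 with apoE4 (adjusted p = 0.157). The exon bases of *Cebpb* overlap those of *Tmem189* on the other strand over 20.7% and those of *Cebpd* overlap *Spidr* over 15%, so reads there are uncertain without strand.

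The calls with the block differed in how far they rested on single libraries. With apoE3, *Osmr*, *Il6st*, *Stat3*, *Socs3*, *Cebpb* and *Cebpd* kept an adjusted p under 0.05 in each of 16 fits that left out 1 library, while *Lif* (0.93 to 1.29, adjusted p up to 0.115) lost it without control library 1 or 4 or apoE3 library 1 or 4. With apoE4, *Osmr*, *Stat3* and *Cebpd* kept it in all 16. *Socs3* with apoE4 lost it without control library 1 or 3 or apoE4 library 1 or 4 (0.82 to 1.22, adjusted p up to 0.102), and *Il6st* without control or apoE4 library 1, 3 or 4 (0.34 to 0.50, up to 0.159). *Lif* with apoE4 lost it in 11 fits, those without any control library, apoE2 library 2 or 3, apoE3 library 1 or 3, or apoE4 library 2, 3 or 4 (0.97 to 1.35, adjusted p up to 0.205). With apoE2, each of the 4 calls was lost in some fits. *Stat3* lost it without control library 1 or 3 or apoE2 library 3 (0.42 to 0.57, adjusted p up to 0.0758), *Osmr* without control library 1 or apoE2 library 1, 2 or 3 (0.92 to 1.34, up to 0.101), and *Socs3* and *Cebpd* without control or apoE2 library 1, 2 or 3 (0.78 to 1.16, up to 0.175, and 0.75 to 1.11, up to 0.123).

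The isoforms were then compared with each other. Without the block, edgeR called 0 of the 8 genes, where it called 0% of all tested genes for apoE3 against apoE2, 0.252% for apoE4 against apoE2 and 0.147% for apoE4 against apoE3, and 0 of the 8 had an unadjusted p under 0.05 (2.28%, 5.34% and 4.7% of all tested genes did). With the block, 3 of the 8 were higher with apoE3 than with apoE2 (0.716% of all tested genes were), 0 differed between apoE4 and apoE2 (4.44%), and 2 were lower with apoE4 than with apoE3 (0.693%). By the fold criterion with the block, 1 was higher with apoE3 than with apoE2 (0.98%), 0 were higher with apoE4 than with apoE2 (1.5%) and 1 was lower with apoE4 than with apoE3 (0.763%).

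*Socs3* and *Stat3* were higher with apoE3 than with either other isoform. *Socs3* was higher with apoE3 than with apoE2 by 1.13 ± 0.19 on the log2 scale (edgeR with the block, adjusted p = 0.014), in 4 of 4 pairs. From apoE3 to apoE4 it fell by 1.09 on the log2 scale, with a standard error of 0.19 and an adjusted p of 0.00882 by edgeR with the block, again in 4 of 4 pairs. *Stat3* was higher with apoE3 than with apoE2 by 0.44 ± 0.09 (edgeR with the block, adjusted p = 0.0258) and fell by 0.42 from apoE3 to apoE4, with a standard error of 0.09 and an adjusted p of 0.0253. Without the block the same 4 differences had adjusted p-values of 1.00 by edgeR, with log2 values of 1.05 and -0.86 for *Socs3* and of 0.43 and -0.40 for *Stat3*.

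The fall of *Socs3* from apoE3 to apoE4 passed in all 16 fits that left out 1 library. That of *Stat3* was lost without apoE3 library 1 or 3 or apoE4 library 1, 2 or 3 (log2 -0.50 to -0.35, adjusted p up to 0.128). The differences between apoE3 and apoE2 were lost for *Socs3* without apoE2 library 2 or 4 (0.96 to 1.30, adjusted p up to 0.0513) and for *Stat3* without apoE2 library 2 or 4 or apoE3 library 1, 2 or 3 (0.37 to 0.53, up to 0.0956). *Il6st* was the other gene called higher with apoE3 than with apoE2, by 0.45 ± 0.10 (edgeR with the block, adjusted p = 0.0384), and lost it in 10 of the 16 fits, those without control library 3 or 4, apoE2 library 2, 3 or 4, apoE3 library 1, 3 or 4, or apoE4 library 1 or 3 (0.35 to 0.55, up to 0.12).

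Between apoE4 and apoE2 the log2 differences with the block were 0.03 ± 0.09 for *Stat3*, 0.04 ± 0.20 for *Socs3*, 0.08 ± 0.17 for *Cebpd* and 0.25 ± 0.20 for *Osmr*. With the summed astrocyte markers as a covariate, or the markers other than *Gfap*, those of *Cebpd* turned to -0.30 and -0.28 and those of *Osmr* to -0.26 and -0.22. A missed threshold does not show that these isoforms act alike. *Osmr* with apoE3 and apoE4 differed by 0.23 on the log2 scale in favour of apoE3 with a standard error of 0.20 (edgeR with the block, adjusted p = 0.592).

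Per kilobase of exon, the mean level over the 16 libraries ran from *Stat3* (19.98 CPM per kb) through *Cebpd* (12.04), *Il6st* (9.57), *Socs3* (5.94), *Lifr* (4.42), *Cebpb* (3.99), *Osmr* (3.70), *Lif* (0.489) and *Il11* (0.188) to *Il6* (0.0386). In the control libraries their ranges overlapped for every neighbouring pair but *Lif* and *Il11*, and *Cebpd* exceeded *Il6st* in 10 of 16 libraries and *Socs3* exceeded *Lifr* in 10 of 16. In the control group both pairs stood the other way in 3 of 4 libraries, with means of 7.71 CPM per kb for *Il6st* and 6.45 for *Cebpd*, and of 4.02 for *Lifr* and 2.90 for *Socs3*. *Stat3* exceeded *Cebpd* and *Lif* exceeded *Il11* in 15 of 16. *Il6st* exceeded *Socs3*, *Osmr* exceeded *Lif* and *Il11* exceeded *Il6* in 16 of 16.

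The replicate numbers also differed in the level of astrocyte markers. Summed over 8 astrocyte markers (*Gfap*, *Aqp4*, *Aldh1l1*, *Slc1a2*, *Slc1a3*, *Gja1*, *S100b* and *Aldoc*), libraries of number 2 had 1307 to 1698 CPM and those of number 4 had 2990 to 6574 CPM. In bulk RNA, more cells of a type and more RNA per cell cannot be told apart. By group the sums ran from 1411 to 3159 CPM in control, 1307 to 3147 with apoE2, 1698 to 6574 with apoE3 and 1570 to 5353 with apoE4. Without the block, edgeR called 0 of the 8 markers against control. In the blocked fit it called 0 of the 8 markers higher with apoE2, 7 with apoE3 and 3 with apoE4, and 0 lower, beside 1.17%, 7.95% and 3.18% of all tested genes called higher. Among them *Gfap*, the intermediate filament of astrocytes and itself a STAT3 target, had a log2 fold change of 1.40 ± 0.19 with apoE3 (adjusted p = 5.4e-04).

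Other marker lists also differed between libraries. For the counts that follow, the block called 1.17%, 7.95% and 3.18% of all tested genes higher with apoE2, apoE3 and apoE4 against control. In either direction it called 294, 1990 and 563 of the 17038 tested genes. The 8 oligodendrocyte lineage markers summed to 107 to 438 CPM in control, 119.8 to 824 with apoE2, 139 to 845 with apoE3 and 109.7 to 676 with apoE4, with 0, 3 and 1 of 8 called higher against control with the block. The 8 fibroblast and mural markers summed to 22.4 to 275 CPM in control, 20.9 to 237 with apoE2, 21.5 to 536 with apoE3 and 24.1 to 471 with apoE4, with 0, 2 and 1 called higher. The 8 neuron markers summed to 4030 to 6819 CPM in control, 4406 to 7272 with apoE2, 2876 to 6612 with apoE3 and 3328 to 6686 with apoE4. By replicate number they ran from 2876 to 4406 CPM in number 4 and from 6574 to 7272 CPM in number 3. With apoE3, 7 of the 8 neuron markers had log2 fold changes below 0, and 2 were called lower and 1 higher with the block, while 0 were called with apoE2 or apoE4. Of the 8 endothelial markers 5 were tested, and 0, 1 and 1 of these were called higher with apoE2, apoE3 and apoE4 with the block, at summed levels of at most 10.3 CPM. Of the 8 microglia markers 0 were called in any comparison with the control, and their sums ran from 6.94 to 32.8 CPM in control, 9.37 to 24.9 with apoE2, 9.09 to 41.8 with apoE3 and 9.46 to 34.3 with apoE4.

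When the log2 level of the astrocyte markers was added to the block as a covariate, a choice made after the data were seen, 2 of the 8 genes were called higher with apoE3 (0.452% of all tested genes were). *Stat3* and *Socs3* had log2 fold changes with apoE3 of 1.03 ± 0.14 (edgeR, adjusted p = 0.00418) and 2.06 ± 0.34 (adjusted p = 0.0174), and differences of apoE4 from apoE3 of -0.44 ± 0.09 (adjusted p = 0.0119) and -1.09 ± 0.20 (adjusted p = 0.00673). Their calls between apoE3 and apoE2 were lost, at 0.52 ± 0.12 for *Stat3* (edgeR, adjusted p = 0.143) and 1.15 ± 0.29 for *Socs3* (adjusted p = 0.152). *Osmr* went from 1.56 to 0.54 ± 0.21 with apoE3 (edgeR, adjusted p = 0.372) and from 1.33 to 0.54 ± 0.18 with apoE4 (adjusted p = 0.305). *Cebpd* went from 1.37 to 0.60 ± 0.21 with apoE3 (edgeR, adjusted p = 0.303), and *Il6st* from 0.56 to 0.19 ± 0.12 (adjusted p = 0.671). *Cebpb* with apoE3 lost its call at 0.91 ± 0.35 after 1.07 (edgeR, adjusted p = 0.375), and *Lif* went from 1.12 to 0.26 ± 0.43 (adjusted p = 0.908). With apoE2, where the marker sums were closest to those of control, *Osmr* went from 1.08 to 0.80 ± 0.12 and *Cebpd* from 0.88 to 0.67 ± 0.12. *Stat3* went from 0.49 to 0.51 ± 0.09, and *Socs3* was at 0.92 ± 0.21 after 0.92. These 4 stayed under an adjusted p of 0.05 by edgeR (2.08% of all tested genes were higher at it). With apoE4, 0 of the 8 genes were under it (0.217%), *Stat3* being at 0.59 ± 0.12 (edgeR, adjusted p = 0.0687) and *Socs3* at 0.98 ± 0.31 (adjusted p = 0.279). Also with apoE4, *Cebpd* went from 0.96 to 0.37 ± 0.18, *Lif* from 1.12 to 0.45 ± 0.37 and *Il6st* from 0.41 to 0.12 ± 0.10. Between isoforms, 0 of the 8 were called for apoE3 against apoE2 (0.0411%) or apoE4 against apoE2 (3.11%), 2 were lower with apoE4 than with apoE3 (1.17%), and 4 passed the test of any difference (6.67%). With the mean log2 level of the 7 markers other than *Gfap* as the covariate, *Stat3* gave 1.01 ± 0.14, *Socs3* 1.92 ± 0.32, *Osmr* 0.53 ± 0.14 and *Cebpd* 0.54 ± 0.15 with apoE3. This covariate gave 4, 2 and 0 genes higher with apoE2, apoE3 and apoE4 than in control (2.05%, 0.605% and 0.299% of all tested genes), 0 for apoE3 against apoE2 (0.164%) and for apoE4 against apoE2 (4.32%), 2 lower with apoE4 than with apoE3 (1.33%) and 4 for any difference (7.09%). Among the treated libraries, *Osmr* ran from 58.6 to 82.9 CPM in number 1, 7.69 to 8.76 in number 2, 25.1 to 26.8 in number 3 and 56.7 to 149.5 in number 4, beside marker sums of 3147 to 4409, 1307 to 1698, 2898 to 3605 and 2990 to 6574 CPM. *Il6st*, *Stat3*, *Socs3* and *Cebpd* were highest with apoE3 in all 4 numbers. With the block alone, 7 of the 8 markers were themselves called higher with apoE3. A fit with such a covariate therefore also takes off any part of a change that the markers share. Whether the astrocyte share caused a difference was not tested.

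**Figure D3:**
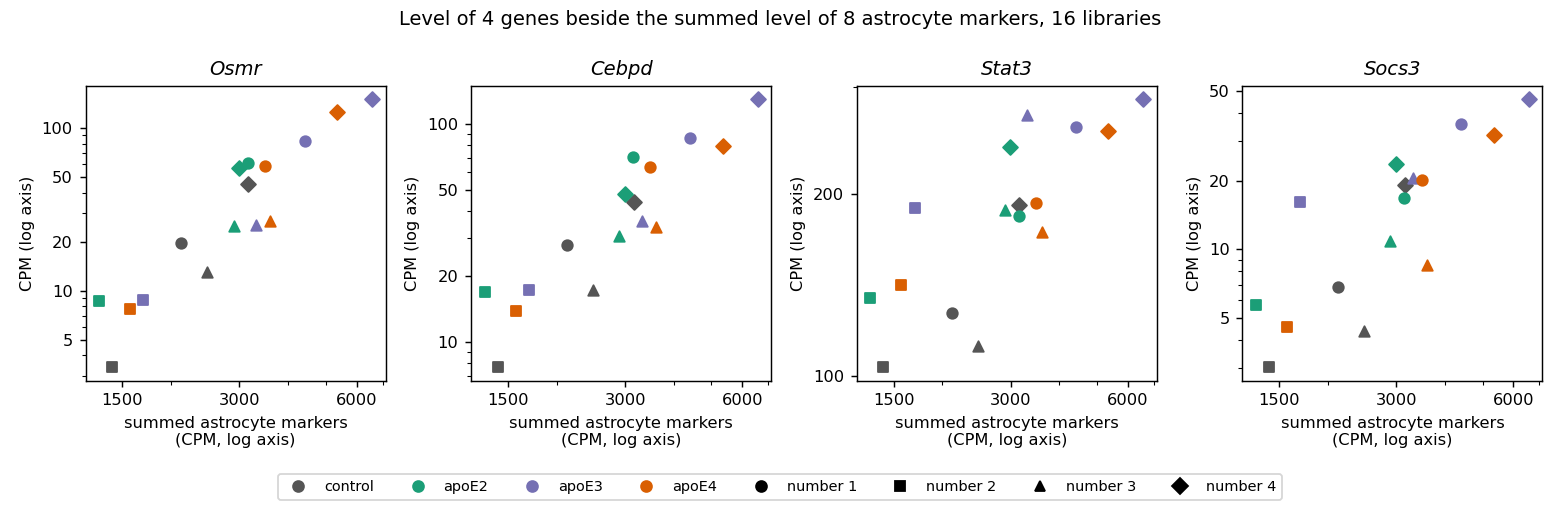
CPM of *Osmr*, *Cebpd*, *Stat3* and *Socs3* against the summed CPM of 8 astrocyte markers in 16 libraries, both on log axes, with colours for groups and marker shapes for replicate numbers. *Osmr* and *Cebpd* are lowest in library 2 of each group, where the marker sum is lowest, but do not follow the sum throughout. *Osmr* is at 25.1 CPM in apoE2 library 3 (sum 2898 CPM) and at 56.7 CPM in apoE2 library 4 (sum 2990 CPM). *Cebpd*, *Stat3* and *Socs3* are highest with apoE3 within each of the 4 numbers.

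A list of 24 STAT3 target and acute-phase genes was examined beside the 10 genes, and 23 of the list were tested. The list was chosen with earlier results of these data known. Without the block 0 of 23 passed in any comparison. With the block 4 rose with apoE2, 19 with apoE3 and 8 with apoE4 against control, beside 1.17%, 7.95% and 3.18% of all tested genes, and 0 fell. Their median log2 fold change without the block was 0.47, 1.14 and 0.91, beside 0.010, 0.015 and 0.0020 over all tested genes. The genes called were *Serpina3n*, *Timp1*, *Bcl6* and *Cd44* with apoE2, and *Serpina3n*, *Timp1*, *Cd44*, *Lcn2*, *Vim*, *Cp*, *Ccl2* and *Saa3* with apoE4. With apoE3 the 19 were these 9 and *Serpina3m*, *Hp*, *Bcl3*, *Il4ra*, *Steap4*, *Ccnd1*, *Icam1*, *Irf1*, *Mcl1* and *Junb*. In the same fit 7 of the 8 astrocyte markers were called higher with apoE3 and 3 with apoE4. Values of this list with the astrocyte covariate are not given, and whether the astrocyte share caused its differences was not tested.

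*Serpina3n*, a serine protease inhibitor of reactive astrocytes, was among the most abundant of the list per kilobase, next to the intermediate filament gene *Vim*. It averaged 169.8 ± 70.2 CPM (SD, n = 4) in control, 317 ± 97.8 with apoE2, 739 ± 209 with apoE3 and 337 ± 201 with apoE4. The apoE3 libraries (470.0 to 928 CPM) did not overlap the control libraries (113 to 271 CPM). Its log2 fold change with apoE3 was 2.15 ± 0.18 (edgeR with the block, adjusted p = 2.3e-05). From apoE3 to apoE4 it fell by 1.25 on the log2 scale, with a standard error of 0.17 (edgeR with the block, adjusted p = 0.00222), and it was higher with apoE3 than with apoE2 by 1.23 ± 0.17 (adjusted p = 0.00427).

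*Timp1*, the tissue inhibitor of metalloproteinases, averaged 8.75 CPM in control and 25.8, 37.4 and 21.3 CPM with apoE2, apoE3 and apoE4. With the block its log2 fold changes were 1.66 ± 0.23, 2.08 ± 0.23 and 1.37 ± 0.23, with adjusted p-values by edgeR of 0.00379, 1.6e-04 and 0.00378. *Bcl6*, a transcriptional repressor, took another course. It averaged 24.3 CPM in control, 38.6 with apoE2, 35.6 with apoE3 and 24.5 with apoE4. With the block it rose by 0.68 ± 0.12 with apoE2 (edgeR, adjusted p = 0.0115) and by 0.57 ± 0.12 with apoE3 (adjusted p = 0.00771), and with apoE4 it was lower than with either of these isoforms, by log2 values of -0.68 against apoE2 (adjusted p = 0.00467) and -0.57 against apoE3 (adjusted p = 0.0254). *Ccnd1*, the cell cycle gene of cyclin D1, and *Vim* were also higher with apoE3 than with apoE2, by 0.92 ± 0.19 (edgeR with the block, adjusted p = 0.0286) and 0.76 ± 0.17 (adjusted p = 0.0421).

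**Figure D4:**
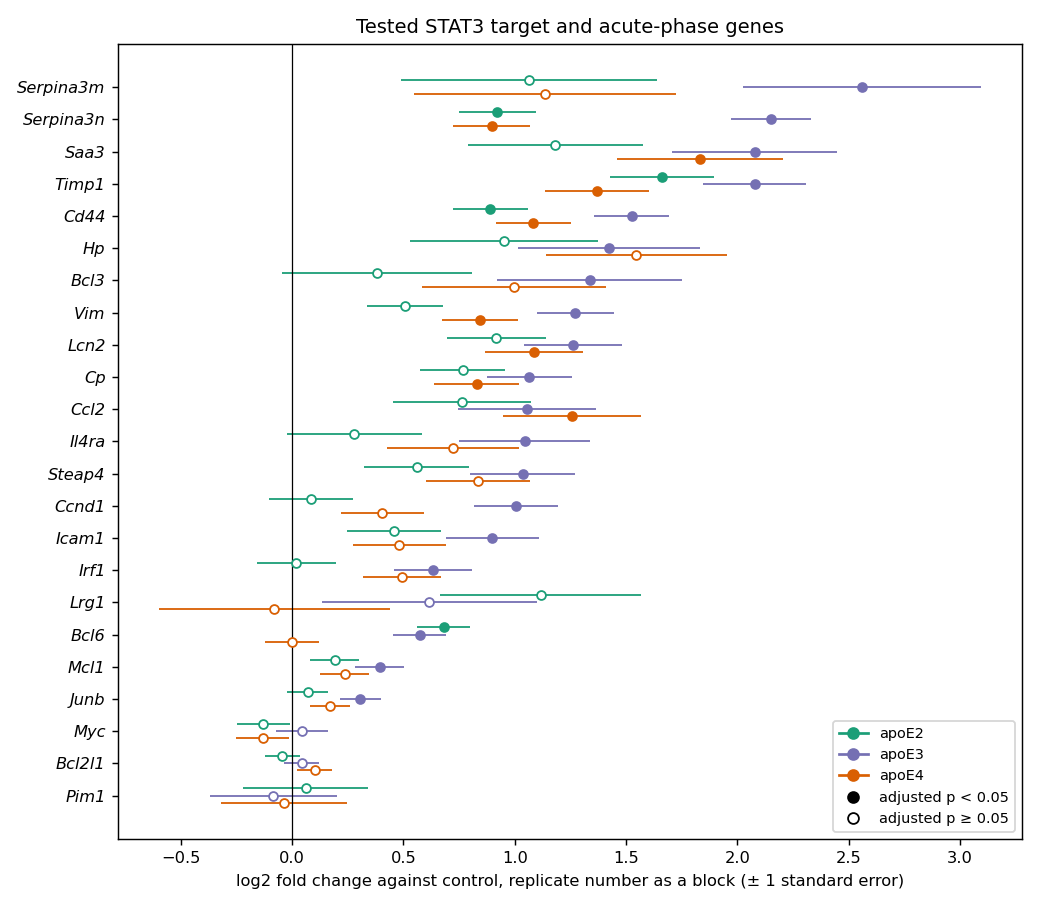
log2 fold changes against control with the replicate number as a block for the 23 tested STAT3 target and acute-phase genes, with bars of 1 standard error, ordered by the value with apoE3. Filled points have an adjusted p under 0.05, 4 with apoE2, 19 with apoE3 and 8 with apoE4, and the widest gaps between apoE3 and the other isoforms are at *Serpina3m* and *Serpina3n*.

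Other genes of the path were examined by list, and without the block edgeR called 0 of them in any comparison. Of 8 other gp130 ligands and partners, 3 were tested, and *Osm*, *Cntf*, *Il27*, *Ebi3* and *Il31* had at most 12 reads in any library. The median log2 fold change of the 3 without the block was 0.79, 1.59 and 1.23 with apoE2, apoE3 and apoE4. With the block 0, 1 and 0 of the 3 rose, beside 1.17%, 7.95% and 3.18% of all tested genes. *Clcf1*, a ligand of the receptor for ciliary neurotrophic factor, rose with apoE3 by 1.94 ± 0.36 (edgeR with the block, adjusted p = 0.00394), from a mean of 0.663 to 2.86 CPM. *Ctf1*, which encodes cardiotrophin 1, went from 0.461 to 1.42 CPM with apoE3 (edgeR with the block, adjusted p = 0.059). Of 5 other receptor chains 4 were tested and 0 passed in any comparison, with or without the block. Among these *Cntfr* averaged 16.7 CPM over the 16 libraries and *Il11ra1* averaged 7.01.

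Of 13 JAK kinases, other STATs and adaptors, 12 were tested. With the block 0 rose with apoE2, 3 with apoE3 and 2 with apoE4, beside 1.17%, 7.95% and 3.18% of all tested genes, and the median log2 fold changes without the block were 0.063, 0.29 and 0.42. *Jak3* rose with apoE3, from 9.30 to 17.4 CPM (log2 0.99 ± 0.13, edgeR with the block, adjusted p = 5.4e-04), and fell by 0.58 on the log2 scale from apoE3 to apoE4 (adjusted p = 0.0346). *Jak1*, the kinase most tied to gp130, rose by 0.29 ± 0.07 with apoE3 (edgeR with the block, adjusted p = 0.021), and the adaptor gene *Gab1* by 0.64 ± 0.15 with apoE3 (adjusted p = 0.016) and with apoE4 (0.64 ± 0.15, adjusted p = 0.0319). *Ptpn11*, whose product SHP2 binds gp130, was higher with apoE4 than in control by 0.39 ± 0.08 (edgeR with the block, adjusted p = 0.0204) and than with apoE2 by 0.31 ± 0.08 (adjusted p = 0.0494). *Grb2*, the most abundant of the list per kilobase, kept within 72.7 and 126 CPM.

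There were 13 other inhibitors of JAK-STAT signalling, all tested. With the block 0, 2 and 0 of them rose with apoE2, apoE3 and apoE4, beside 1.17%, 7.95% and 3.18% of all tested genes. The phosphatase genes *Ptpn2* and *Ptpn1* rose with apoE3, by 0.56 ± 0.12 (edgeR with the block, adjusted p = 0.00809) and 0.32 ± 0.08 (adjusted p = 0.0206). *Socs5* was higher with apoE4 than with apoE2 by 0.30 ± 0.08 (adjusted p = 0.0446). The most abundant per kilobase, *Socs7* and *Pias2*, averaged 145 and 50.2 CPM and passed in no comparison. The median log2 fold change of the list without the block was -0.056, 0.12 and 0.05 with apoE2, apoE3 and apoE4.

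Among 6 other C/EBP family and partner genes, 5 were tested, and 0 passed in any comparison without the block. With the block 1 was called higher with apoE4 against control (3.18% of all tested genes were). With apoE2 1 was called lower, where 294 of the 17038 tested genes were called in either direction. *Cebpg* rose with apoE4 and with no other isoform against control, from 37.4 ± 1.7 to 53.1 ± 10.0 CPM (SD, n = 4), and the ranges of these groups did not overlap. Its log2 fold change with apoE4 was 0.48 ± 0.10 against control (edgeR with the block, adjusted p = 0.019), 0.61 ± 0.11 against apoE2 (adjusted p = 0.00379) and 0.45 ± 0.11 against apoE3 (adjusted p = 0.0442). *Cebpa* fell by 0.63 on the log2 scale with apoE2 (edgeR with the block, adjusted p = 0.0125). The most abundant of the list per kilobase, *Ddit3* and *Nfil3*, averaged 19.8 and 21.4 CPM over the 16 libraries and passed in no comparison.

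Across the tested genes, those with the profile most like that of *Socs3* over 16 libraries were *Vwa5a* (Pearson's r = 0.972), *Cd164* (0.970) and *Rgma* (0.970). After the mean of each replicate number was taken off, they were *Sbno2* (0.982), *Vwa5a* (0.980) and *Serpina3n* (0.973). For *Osmr* they were *Cdh19* (0.994), *Col4a6* (0.993) and *Adamtsl3* (0.991), and within numbers *Cebpd* (0.979), *Cdh19* (0.976) and *Npas3* (0.975). For *Cebpd* they were *Kank2* (0.991), *Dock1* (0.989) and *Osmr* (0.987), and within numbers *Npas3* (0.987), *Cd109* (0.979) and *Osmr* (0.979). For *Cebpb* they were *Hspb1* (0.949), *Gna12* (0.946) and *Mtmr11* (0.944), and within numbers *Angptl2* (0.925), *Olfml3* (0.912) and *Pik3r5* (0.912). These values describe log2 CPM over 16 libraries that share groups and replicate numbers.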

How the data were processed

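Ribosomal RNA was depleted and libraries were prepared by the study with a Truseq kit. The authors ran STAR against mm10 and HTSeq to obtain raw read counts per gene. The deposited values are these counts for 48397 symbols in each of 16 libraries. The annotation and the strand setting are not given in the sources used here. Reads that HTSeq put on no single gene entered neither library sizes nor tests.

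Sample titles gave the groups and replicate numbers. Counts were scaled by TMM, filtered with edgeR's filterByExpr (10 counts, group size 4), which left 17038 genes, and tested with edgeR 4.0.16 (quasi-likelihood, all 16 libraries in a single fit, Benjamini-Hochberg adjustment over all tested genes) in R 4.3.3. DESeq2 1.42.0 was an alternative. CPM are TMM-scaled. The fitting was tested on simulated data. *Il11*, below the filter's cutoff in all control libraries, was left out of all counts of calls, a choice made after its values were seen. With 4 libraries a group, p-values measure the spread between these libraries.

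Replicate numbers come from the labels, which do not say what they mark. The deviations of same-numbered libraries from their group means correlated at 0.362 to 0.831 over all 24 pairs. The 96 pairs of different numbers ran from -0.83 to 0.569, and the highest of these lay above every pair of number 1 (0.362 to 0.552). Every same-numbered pair was above 0.1, so the numbers were taken to pair libraries, and the fit with the number as a block is printed wherever it changes a call.

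Exon lengths and positions are from GENCODE M21 (GRCm38), which held 95.9% of the symbols, and promoters from RefSeq. The 10 genes and all lists were chosen with earlier results of these data known. Named were the 10 genes, each gene of the pathway lists called in any comparison, the 2 most abundant per list, and for *Socs3*, *Osmr*, *Cebpb* and *Cebpd* the 3 most alike genes. The rule also names a gene that is not reported here.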

Additional observations from a re-analysis of the deposited data

Results flagged for a closer look

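Among 40 sets of 4 libraries (10 genes in 4 groups), 2 held a library far from the other 3 by Dixon's test, a rule that chance meets in about 1 of 20 sets. *Il11* in apoE4 library 4 was at 0.61 CPM, with the nearest other apoE4 library at 0.203 CPM, a gap of 0.916 of the range of the group. *Il6* in the same library was at 0.508 CPM, with the nearest at 0.0677 CPM, a gap of 0.867 of the range. These rest on 12 and 10 reads.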

How the results depend on the processing

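Without the replicate block, 0 of the 8 genes passed in any comparison under DESeq2's size factors, without a filter, with a filter of 1 CPM in 8 libraries, with only the groups compared, or without any 1 library. The exception was DESeq2, which called 1 with apoE3. The replicate block gave 4, 7 and 6 calls with apoE2, apoE3 and apoE4 against control, 3 for apoE3 against apoE2, 0 for apoE4 against apoE2, 2 for apoE4 against apoE3 and 7 for any difference, and changed no other call. The fold criterion gave 0, 3 and 0 calls against control, and with the block 1, 5 and 2, with 1 for apoE3 against apoE2 and 1 for apoE4 against apoE3, where 0.98% and 0.763% of all tested genes were called in that direction.

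Leaving out 1 library or 1 replicate number from the fit with the block gave 0 to 4 calls with apoE2, 5 to 7 with apoE3 and 1 to 6 with apoE4. It gave 0 to 3 for apoE3 against apoE2, 0 to 1 for apoE4 against apoE2, 0 to 3 for apoE4 against apoE3 and 4 to 7 for any difference. The shares of all tested genes called in these fits are not given, so the counts cannot be set beside them. Leaving out single libraries with the block and the astrocyte covariates were chosen after the data were seen. Either covariate gave 4, 2 and 0 calls with apoE2, apoE3 and apoE4, 0 for apoE3 against apoE2, 2 for apoE4 against apoE3 and 4 for any difference.

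Of 2359 log2 fold changes recomputed, 86 had another sign, 12 of them in comparisons with the control, and none of the 86 was called in either fit. The move exceeded the standard error in 12, all with an astrocyte covariate. *Lifr* went to -0.11 and -0.10 with apoE3, to -0.023 and -0.027 with apoE4, to -0.095 and -0.054 for apoE3 against apoE2 and to -0.0081 for apoE4 against apoE2, the value with the summed markers given before that without *Gfap*. For apoE3 against apoE2, *Osmr* went to -0.26 and -0.19, *Cebpd* to -0.074 and -0.043 and *Lif* to -0.061. For apoE4 against apoE2, with smaller moves than the standard error without the block, *Osmr* went to -0.26 and -0.22 and *Cebpd* to -0.30 and -0.28. The cause was not tested. Depth limits *Il6* and *Il11*, with at most 10 and 35 reads in a library.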
